A study of Arabidopsis thaliana with 3 samples.

Results

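Genes bound only in the proximal promoter were those with a PISTILLATA (PI) or APETALA3 (AP3) peak score 0 to 1000 bp upstream of the gene. This window was the only one with a score in every table that listed the gene. There were 747 such genes among the 3132 listed for either factor (23.9%). The windows were 2000 to 3000, 1000 to 2000 and 0 to 1000 bp upstream, inside the gene, and 0 to 1000 bp downstream. The members were thus chosen by the peak scores of the tables, so the scores below describe them and are no test of them. Of the 747 genes, 366 were listed for both factors, 278 for PI alone and 103 for AP3 alone.

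The data are chromatin immunoprecipitation followed by sequencing (ChIP-seq) of Arabidopsis flowers at about stage 4 to 5. The libraries are PI-GFP in AP1-GR ap1 cal, AP3-GFP in AP1-GR ap1 cal, and a negative control of AP1-GR ap1 cal without a tagged factor, with 1 library each. All 3 are in the Ler background, were taken 4 days after treatment with 10 µM dexamethasone and went through immunoprecipitation against GFP. All 3, the control included, thus carry the ap1 and cal mutations and the AP1-GR fusion, which is expressed from the constitutive 35S promoter and enters the nucleus on dexamethasone, so that many flowers start to develop together. No source used here gives the promoters that drive the GFP fusions. The control's own values were not analysed here, and with 1 library a factor no difference between factors has a replicate check.

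PI and AP3 are MADS-domain transcription factors that act as a heterodimer to specify petals and stamens, and they maintain their own expression. MADS-domain dimers recognise the CArG box, a short AT-rich element, and in plants they are known to bind both close to gene starts and at distant sites. The bases just upstream of a start are where many plant promoters carry the elements that recruit such factors.

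The score of a peak is the authors' own value, which the file headers call Poisson, with no fixed range. It describes and ranks peaks within a list, and it is not comparable in size between the lists. Over all peaks it ran from 25.3 to 9217 for PI and from 26.6 to 9926 for AP3. Depth is unknown, since only scores were analysed here.

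The highest member for PI was PI itself (AT5G20240), with a PI score of 9217 and an AP3 score of 1033. Its PI peak, on chromosome 5 from 6827876 to 6831200, held the whole AP3 peak, from 6828727 to 6829258, and the maxima were 1 bp apart. At 3325 bp that PI peak was wider than the 1000 bp window, so part of it lay outside the window. How a peak wider than a window is assigned to windows is not given in the sources used here. No other listed gene shared either peak. Among the 366 shared members PI ranked 1st by PI score and 6th by AP3 score. AP3 (AT3G54340), which is not a member, scored 2038 for PI and 9926 for AP3. Each factor's own gene thus had the highest score of its own list, and the reason was not tested. The other member genes of the MADS-box family, collected after the values were seen, were 6 in number. AGL15 (AT5G13790), a repressor of flowering that is also active in embryos, scored 1051 for PI and 554 for AP3. SHP2 (AT2G42830), which acts in carpels and fruit opening, scored 288 and 123. AGL71 (AT5G51870), a relative of the flowering promoter SOC1, scored 127 and 133. AGL44 (AT2G14210), known for root responses to nitrate, scored 92.5 and 38.6. TT16 (AT5G23260), the B-sister gene that acts in the seed coat, scored 51.05 for PI and MAF4 (AT5G65070), a relative of FLC, scored 34.4 for PI, and neither was listed for AP3. These genes thus stood far apart in PI score, from 34.4 to 9217, in a set that ran from 28.1 to 9217.

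ECT6 (AT3G17330), of the family of RNA-binding proteins that read methylated adenosine, scored 2324 for PI and 1345 for AP3, and ranked 2nd and 3rd among shared members. CCB1 (AT3G26710), needed to assemble the cytochrome b6f complex of chloroplasts, scored 1944 and 1227. RPL16A (AT2G42740), a cytosolic ribosomal protein gene, scored 1716 for PI and 365 for AP3. At RPL16A the PI peak lay on chromosome 2 from 17791298 to 17791863, and the AP3 peak from 17791291 to 17791832. Both peaks also lay inside AT2G42730 and 1000 to 2000 bp upstream of AT2G42750. The peaks of ECT6 also lay downstream of AT3G17340, and those of CCB1 downstream of AT3G26700. ECT6, CCB1 and RPL16A were among the 4 highest members for PI, behind PI itself.

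The next members by PI score were AT5G21280, annotated as a hydroxyproline-rich glycoprotein (1551 for PI and 729.8 for AP3, with the PI peak on chromosome 5 from 7265648 to 7266479), AT5G03285 (1542 and 329.6), AT1G13410, annotated as similar to pentatricopeptide repeat proteins (1434 and 1109), and AT3G10040, annotated as a transcription factor (1260.2 and 428). The pair AT1G56555 and A/N-InvA (AT1G56560), the latter an invertase, shared 1 peak that lay within 1000 bp upstream of each gene (1065 and 296). The peak of AT5G03285 also lay inside EIN2, the central membrane protein of ethylene signalling, so the proximal window of 1 gene can hold a peak inside another.

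By AP3 score the highest member was BBX13 (AT1G28050), a B-box zinc finger gene, with 1881 for AP3 and 457 for PI. It ranked 1st among shared members by AP3 and 49th by PI, and the maxima of its peaks were at the same base. AT5G07620, annotated as a protein kinase, followed with 1403 for AP3 and 720.0 for PI, again with maxima at the same base. AT4G21870, a small heat shock protein gene, and AT4G21880, a pentatricopeptide repeat gene, shared 1 proximal peak with 792 for AP3 and 750.2 for PI. The other members among the 10 highest by AP3 score were ECT6, CCB1, AT1G13410, PI, AT5G21280 and the microRNA gene MIR159a, described below. The 10 highest members for PI and for AP3 thus overlapped in part, and both lists mixed regulators with genes of basic cell functions.

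**Figure D1:**
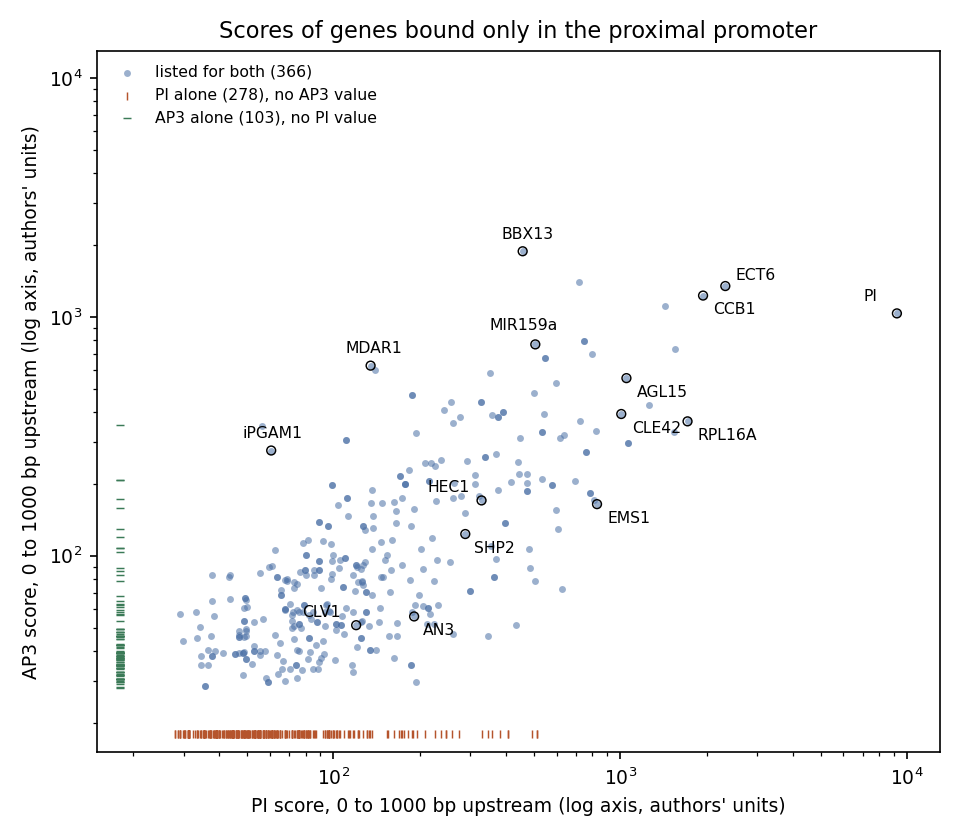
Each point is a gene bound only 0 to 1000 bp upstream, with its PI score on the horizontal and its AP3 score on the vertical axis, both logarithmic and in the authors' units. Ticks along the axes are genes listed for 1 factor alone, placed at an arbitrary low value because they have no score for the other. PI stands apart at the right (9217 for PI and 1033 for AP3), BBX13 has the highest AP3 score (1881), and no gene listed for 1 factor alone exceeds 513 for PI or 351 for AP3.

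The order of scores was alike in both libraries. Across the 366 shared members the rank correlation (Spearman's rho) was 0.702, with a Pearson correlation of 0.745 between log2 scores. Across all 1558 genes listed for both factors these values were 0.706 and 0.753. These are descriptions across genes, which share the libraries and 1 control and often share a peak. Of the 50 highest shared members by PI score, 30 were also among the 50 highest by AP3 score.

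Some genes departed from that order. The largest moves up from PI to AP3 were at AT4G25280, annotated as an adenylate kinase (rank 312 by PI score, 56.5, and rank 38 by AP3 score, 348), iPGAM1 (AT1G09780), a phosphoglycerate mutase of glycolysis (rank 305, 60.6, and rank 51, 276), and AT3G09000, annotated as proline-rich (rank 354, 37.7, and rank 171, 83.2). At all 3 the PI peak was the narrower and overlapped the AP3 peak, as at iPGAM1, where the PI peak spanned 230 bp and the AP3 peak 354 bp. The largest moves down were at AT4G26488, annotated as a potential natural antisense gene (rank 113 by PI score, 194, and rank 364 by AP3 score, 29.5), and at AT1G61780 and AT1G61790, the latter annotated as an OST3/OST6 family protein, which share 1 PI peak (186 for PI and 34.7 for AP3). MDAR1 (AT3G52880), a peroxisomal enzyme that recycles ascorbate, was picked out after its values were seen and scored 135 for PI and 625 for AP3.

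Among members listed for both factors the scores were higher than among members listed for 1. The median PI score was 119 (quartiles 73.4 and 235) for the 366 shared genes and 55.6 (42.3 and 81.5) for the 278 genes of PI alone. The median AP3 score was 79.9 (51.1 and 175) for the shared genes and 39.02 (34.1 and 49.4) for the 103 genes of AP3 alone. The ranges overlapped, since shared members began at 29.2 for PI and 28.5 for AP3. The same held over all listed genes, with median PI scores of 129.9 and 53.1 and median AP3 scores of 80.3 and 37.9, so this is no trait of the proximal window.

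Sharing was more frequent at higher scores within the set. The same cut was not made over all listed genes, so this is not shown to be particular to the members. With the members of the PI table cut into 4 groups by score, 46 of the 161 lowest were also listed for AP3 (28.6%, exact 95% interval 21.7 to 36.2), and 137 of the 161 highest (85.1%, 78.6 to 90.2). For members in the AP3 table, 59 of the 118 lowest were listed for PI (50%, 40.7 to 59.3) and 112 of the 117 highest (95.7%, 90.3 to 98.6). The intervals are Clopper-Pearson intervals that cover counting error over genes only. A gene missing from a table may have fallen under the authors' threshold.

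**Figure D2:**
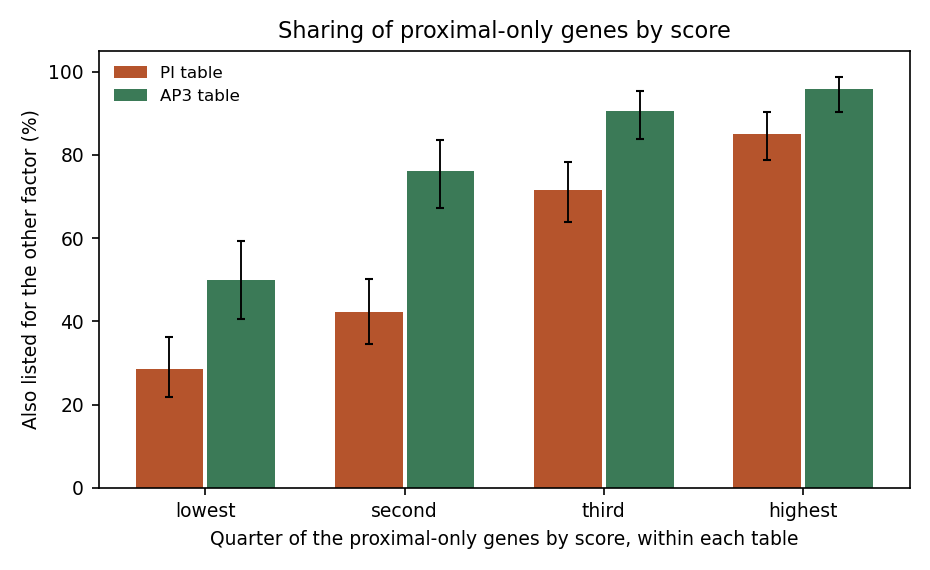
Bars give the share of proximal-only genes that were also listed for the other factor, in 4 groups by score within the PI table (161 genes each) and within the AP3 table (117 or 118 genes each). Error bars are exact 95% intervals over genes, and the share goes from 28.6% to 85.1% in the PI table and from 50% to 95.7% in the AP3 table.

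Of all members, 49.0% (45.4 to 52.6) were listed for both factors, against 49.7% of all listed genes, so the share was near the background. Without genes whose placed peak lay in a window of another listed gene it was 30.6%, and over all listed genes under the same setting it was also 30.6% (406 of 1327). This rule and those for the other windows ask for the same window in both tables, which bears on the shares. Genes bound only 2000 to 3000 bp upstream were listed for both in 194 of 439 cases (44.2%, 39.5 to 49.0), and genes bound only 1000 to 2000 bp upstream in 161 of 372 (43.3%, 38.2 to 48.5). The shares were 256 of 560 for downstream only (45.7%, 41.5 to 49.9) and 174 of 529 for inside only (32.9%, 28.9 to 37.1). As a share of the AP3 table, 78.04% of proximal-only genes (74.01 to 81.7) were listed for PI, against 72.6% of all AP3-listed genes. That share was 72.4% for 2000 to 3000 bp upstream only, 70% for 1000 to 2000 bp upstream only, 48.6% for inside only (43.3 to 53.9) and 65.6% for downstream only. As a share of the PI table, 56.8% of proximal-only genes (52.9 to 60.7) were listed for AP3, against 61.2% of all PI-listed genes. The other classes of 1 window stood at 53.2%, 53.1%, 50.4% and 60.1% in the same order, so the members lay above all listed genes on the AP3 side and below them on the PI side. The inside-only genes had 184 members listed for AP3 alone, with a median AP3 score of 36.1, and the proximal-only genes had 103, with a median of 39.02. None of these differences was tested, since genes of 1 library are not replicates.

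**Figure D3:**
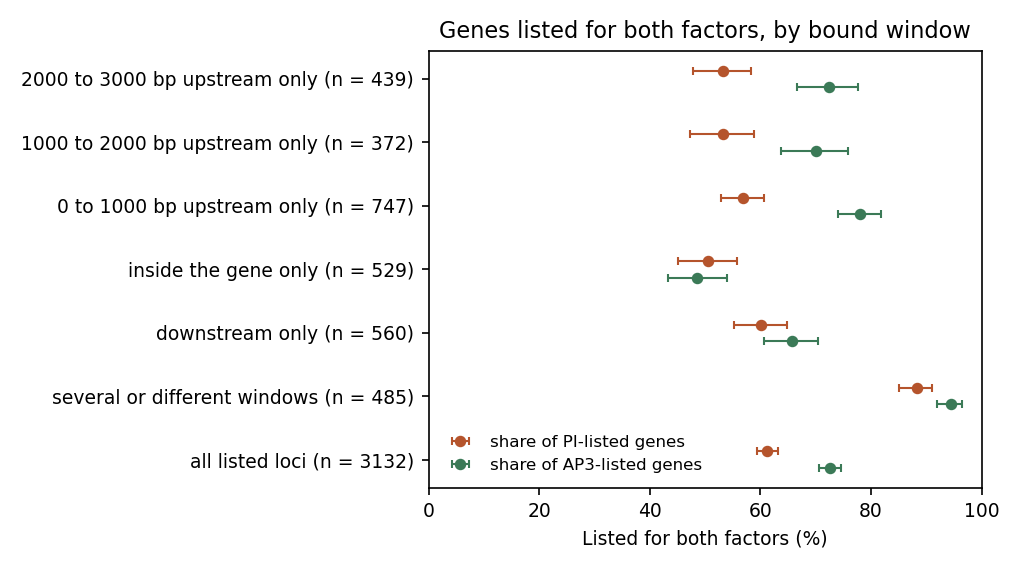
Points give the share of genes listed for both factors, taken over the PI-listed and over the AP3-listed genes of each window class, with exact 95% intervals over genes. Proximal-only genes lie at 56.8% of PI-listed and 78.04% of AP3-listed genes, inside-only genes at 50.4% and 48.6%, and genes with several or different windows at 88.3% and 94.4%.

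The median PI score of all proximal-only genes was 81.5, against 83.1 and 84.6 for the genes bound only in the farther upstream windows, 70.3 inside and 79.2 downstream. For AP3 these medians were 62.5, 56.97, 61.2, 43.4 and 51.9 in the same order. Genes with several or different windows stood higher, at 150.5 for PI and 82.8 for AP3. Of the 101 genes with the highest PI scores (tied at the 100th place), 18 were proximal-only (17.8%), against 644 of 2544 genes of the PI table (25.3%). For AP3 the count was also 18 of 101 (17.8%), against 469 of 2146 (21.9%). Among the 500 highest, 110 were proximal-only for PI (22%) and 117 for AP3 (23.4%), so for AP3 the larger group lay slightly above the share in the whole table.

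The members were chosen by the window of each peak, which limits where it lies relative to the gene. The overlaps and distances below are thus not independent of the rule. The exact coordinates in the peak lists played no part in that choice. A gene was tied to a peak by chromosome and identical score where 1 peak had that combination. It did so for 482 of 644 PI members and 315 of 469 AP3 members, which rested on 407 different PI peaks and 270 different AP3 peaks. The median width of these peaks was 352 bp for PI and 297.5 bp for AP3, against 329 and 243.5 bp for the remaining peaks of each list. The remaining peaks include those of members that could not be tied to 1 peak. Tied members had higher scores, with a median PI score of 96.7 for genes with every peak placed against 81.5 for all members.

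At 234 shared members both peaks could be placed, and they overlapped by at least 1 bp at 233 (99.6%, 97.6 to 100). The exception was RIP5 (AT5G60210), which scored 91.6 for PI and 44.0 for AP3 with maxima 478 bp apart, so the 2 factors had different peaks in the same 1000 bp. In the other classes of 1 window the share was 98.1% to 100%, and it was 83.6% for genes with several or different windows. The rule asks for the same window in both tables, so a high share is partly fixed by it.

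Within the overlapping pairs the maxima were a median of 20 bp apart (quartiles 2 and 59). They were at the same base for 40 genes, at most 10 bp apart for 89, and at most 50 bp apart for 160 of 233 (68.7%, 62.3 to 74.6). These counts, and those of overlap above, are over genes. A peak pair shared by several genes counts for each of them, so the intervals do not describe separate peaks. The median distance was 18 bp for genes bound only 2000 to 3000 bp upstream and 13 bp for 1000 to 2000 bp upstream only. It was 14 bp for inside only and 20 bp for downstream only, so the spacing was like that in these classes. It was wider for genes with several or different windows, at a median of 29 bp (quartiles 6 and 66). The PI peak was the wider at 191 of the 233 genes (82.0%). In the other classes of 1 window this share was 75.5% to 86.7%, and it was 90.6% for genes with several or different windows. With the pairs cut into 4 groups by PI score, the median distance was 27, 14, 16 and 20 bp from the lowest group to the highest, with no steady order. The median PI peak width was 244 bp in the lowest group and 572 bp in the highest. Among genes picked out after their values were seen or from the gene lists, HEC1 (AT5G67060), GRP2B (AT2G21060) and CAT8 (AT1G17120) had maxima at the same base. AT5G10310 had the maxima farthest apart, at 431 bp, and ATAUX2-11 (AT5G43700) followed at 221 bp.

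**Figure D4:**
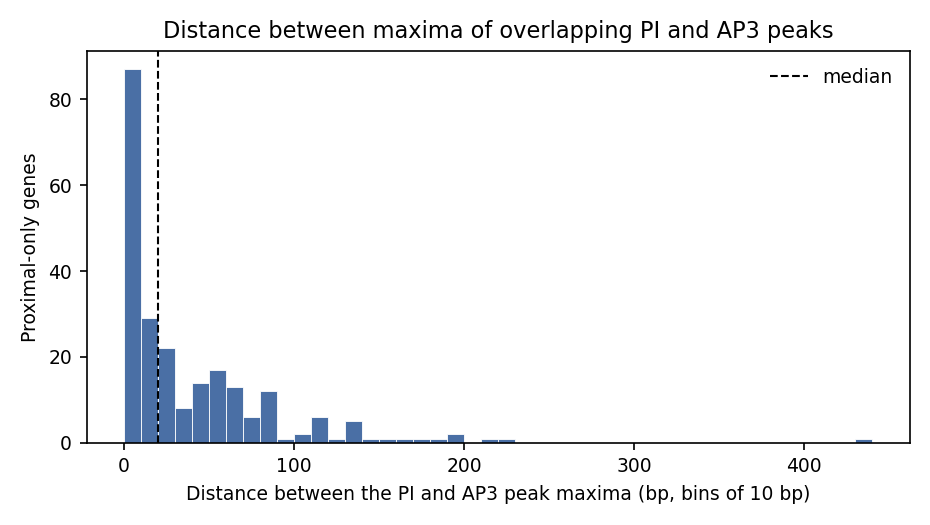
The histogram gives the distance between the PI and AP3 maxima for the 233 proximal-only genes with overlapping, placed peaks, in bins of 10 bp. A peak pair shared by several genes counts for each of them. Most genes lie below 50 bp (median 20 bp, dashed line), and 1 gene lies at 431 bp.

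Most member peaks were also in a window of a neighbouring gene, so "proximal only" holds for the gene and not for the peak. Of the 482 placed PI members, 381 (79.05%) had a peak that was also listed for another gene, and 101 did not. The other gene had that peak 0 to 1000 bp upstream for 154 members, downstream for 122, 2000 to 3000 bp upstream for 120, 1000 to 2000 bp upstream for 76 and inside for 43, where 1 peak can count for several. For AP3 the peak was listed for another gene at 263 of 315 members (83.5%). These shares were not set beside those of all listed genes, so they are not shown to be particular to the members. PI, AT5G21280, AT1G13410, MAPKKK18 (AT1G05100; 794 for PI and 702 for AP3), CAT3 (AT1G20620; 634 and 319), ARR7 and LSH4 were among the members whose peaks were in no window of another listed gene, and MAPKKK18 and CAT3 were picked out after their values were seen.

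There were 74 PI peaks that were proximal to 2 or more members, with 149 members in all, and 44 such AP3 peaks with 89 members. At such peaks the data do not say which gene start is meant. The pairs named here were picked out after their values were seen. One was SCR (AT3G54220), which patterns the ground tissue and bundle sheath, and AT3G54210, a ribosomal protein L17 gene (472 for PI and 186 for AP3, chromosome 3, 20069090 to 20069737 for PI). WRKY32 (AT4G30935) and AT4G30940 shared a peak of 396 and 137. TRFL7 (AT1G06910), annotated as a myb family gene, and AT1G06900, a peptidase gene, shared 786 and 183. AGL71 and AT5G51880, annotated as an oxidoreductase, shared 127 and 133, on chromosome 5 from 21088402 to 21089087 for PI. PnsB4 (AT1G18730), of the chloroplast NADH dehydrogenase-like complex, and AT1G18720 shared 544 and 674.

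Gene lists of flower development, hormone pathways, photosynthesis and housekeeping placed some members by role. Across the 11 lists, with 270 entries, 107 were listed for a factor (39.6%, against 10.6% of protein-coding genes). AT5G02030, not listed for a factor, stands in both the carpel and the floral meristem list, as RPL and PNY, and counts in each. Of the housekeeping genes 5 of 17 were listed (29.4%) and of the photosynthesis genes 2 of 22 (9.09%). In all, 16 of the 107 were proximal-only. That is 5.93% of the list entries, against 2.54% of protein-coding genes, and 14.95% of the listed ones, against 23.9% of all listed genes. The lower share among listed genes turned round when the proximal window had only to hold the highest score, with 31 of the 107 (29.0%) against 846 of all 3132 listed genes (27.0%). Genes with several or different windows were 50 of the 107 (46.7%), against 15.5% of all listed genes. The lists were compiled with earlier results of these data known, so these shares are descriptions.

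Of 17 listed genes in the floral organ identity and MADS-box list, 3 were proximal-only (PI, AGL15 and SHP2) and 13 had several or different windows. Of 17 listed boundary and polarity genes, 1 was proximal-only and 13 had several or different windows. That gene was LSH4 (AT3G23290), of the ALOG family that acts at organ boundaries, with 186 for PI and 132 for AP3 on chromosome 3 from 8325540 to 8326217 (PI) and maxima 18 bp apart. Among 17 listed floral meristem and flowering time genes, 2 were proximal-only. CLV1 (AT1G75820), the receptor kinase that limits stem cell number, scored 120.0 and 51.1, and TOE1 (AT2G28550), an AP2-type repressor of flowering, scored 71.7 for PI and was not listed for AP3.

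In the carpel list, 3 of 10 listed genes were proximal-only. HEC1, a basic helix-loop-helix gene of the transmitting tract, scored 328 and 170.3, ALC (AT5G67110), which acts in fruit opening, scored 75.9 and 51.6, and STY2 (AT4G36260), which acts in style development, scored 61.8 for PI alone. In the petal and stamen list it was also 3 of 10. EMS1 (AT5G07280), the receptor kinase that sets tapetal cell fate in anthers, scored 830 for PI and 164 for AP3, with maxima 7 bp apart. AN3 (AT5G28640), a coactivator that promotes cell proliferation in leaves and petals, scored 191 and 55.6. BB (AT3G63530), a ubiquitin ligase that limits petal and sepal size, was listed for AP3 alone, at 351.

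The other lists held 4 members. GRF7 (AT5G53660), a growth-regulating factor gene whose family acts with AN3, scored 211 and 51.6. ARR7 (AT1G19050), a type-A response regulator that dampens cytokinin signalling, scored 323 and 177 on chromosome 1 from 6579284 to 6579691 for PI. SHY2 (AT1G04240), an Aux/IAA repressor of auxin responses, was listed for AP3 alone at 37.9, close to the median of genes of AP3 alone (39.02). TUA4 (AT1G04820), an alpha-tubulin gene of the housekeeping list, scored 39.9 for PI alone. No gibberellin or photosynthesis gene was proximal-only, of 7 and 2 that were listed.

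**Figure D5:**
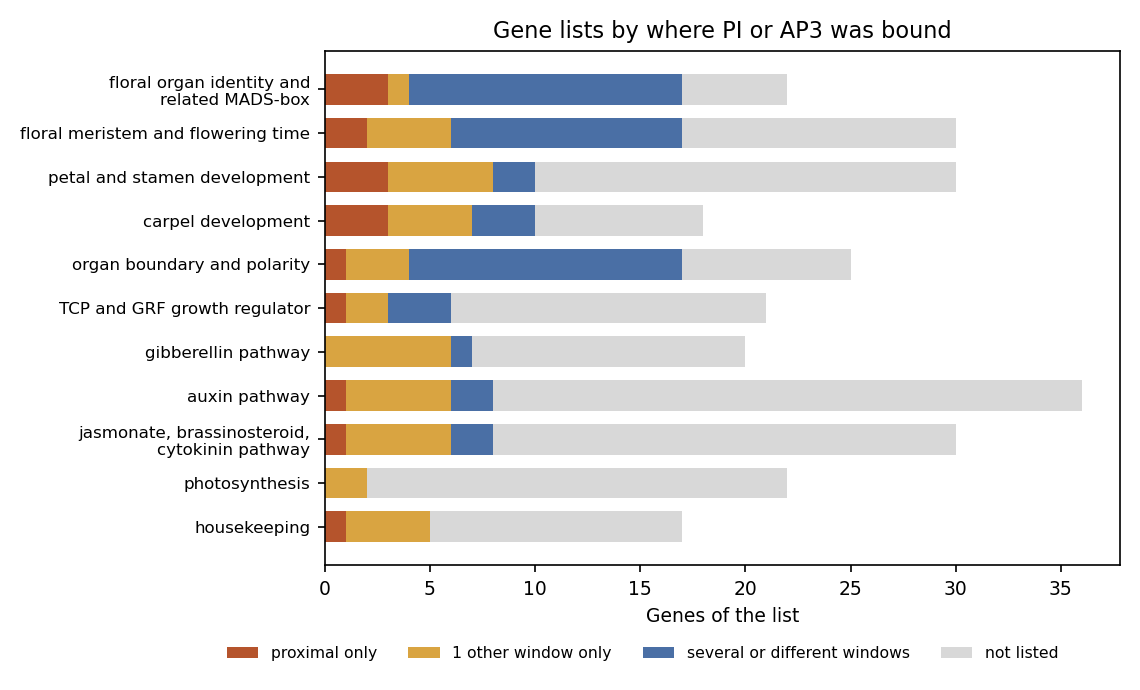
Each bar counts the genes of 1 list by where PI or AP3 was bound, namely only 0 to 1000 bp upstream, only in 1 other window, in several or different windows, or not listed. In the MADS-box and the boundary and polarity lists 13 of 17 listed genes fall in the class of several or different windows, and each list holds between 0 and 3 proximal-only genes.

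Further members with developmental roles were picked out after their values were seen. CLE42 (AT2G34925), a gene of the CLE family of signalling peptides, scored 1008 for PI and 392 for AP3. Its peaks were on chromosome 2, from 14733249 to 14734037 for PI and from 14733270 to 14733619 for AP3. CRN (AT5G13290), a membrane pseudokinase of the CLAVATA pathway that restricts stem cells, scored 417 and 203, also with overlapping peaks. CPC (AT2G46410), a small MYB protein that promotes root hair cell fate, scored 137 and 147, and GL3 (AT5G41315), a basic helix-loop-helix partner in trichome fate, scored 196 for PI alone.

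Hormone signalling genes among the members, also picked out after the values were seen, included ATAUX2-11 (368 and 267) and IAA9 (AT5G65670; 133 for PI alone), both Aux/IAA genes, and CRF2 (AT4G23750; 129 and 128), an ERF-type gene of cytokinin responses. NF-YB2 (AT5G47640), a subunit of the CCAAT-binding complex that promotes flowering, scored 111 and 175. TPL (AT1G15750), a corepressor of transcription that acts with Aux/IAA proteins, scored 59.5 for AP3 alone. These genes thus fell into the shared class and both single-factor classes.

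By gene type, 701 members were protein-coding (93.8%, against 93.1% of all listed genes), and 10 each were miRNA and tRNA genes. The tRNA genes were 10 of 47 listed (21.3%), against 23.9% of all listed genes. MicroRNA genes, which give short RNAs that direct cleavage of target transcripts, were proximal-only in 10 of 25 listed cases (40%, against the same 23.9%), a group looked at after the values were seen. MIR159a, whose product targets MYB genes of anther development, scored 506 for PI and 766 for AP3 on chromosome 1 from 27713314 to 27713844 (PI), with maxima 5 bp apart. MIR169c, of a family that targets NF-YA genes, scored 541 and 393 with maxima 2 bp apart. MIR418 scored 357 and 387 with maxima at the same base.

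The other 7 miRNA members were listed for PI alone, with lower scores. They were MIR160a (102), whose product targets auxin response factor genes, MIR168b (84.8), which acts on AGO1, MIR166b (75.3), which acts on class III homeodomain-leucine zipper genes, MIR156c (55.3) and MIR156d (38.8), which act on SPL genes, MIR171a (49.4), which acts on GRAS genes, and MIR398a (46.2), which acts on copper superoxide dismutase genes. The 3 shared miRNA genes were thus all above the 7 unshared ones by PI score.

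By annotation words, the members were like all listed genes. Transcription factor or zinc finger words matched 70 of 694 annotated protein-coding members (10.1%) and 282 of 2862 listed ones (9.85%). Protein kinases were 22 (3.17% against 3.18%), F-box and ubiquitin pathway genes 26 (3.75% against 3.81%), transporters and channels 16 (2.31% against 2.69%), cell wall and carbohydrate enzymes 18 (2.59% against 2.17%), and ribosome and translation genes 12 (1.73% against 1.40%). Each share is close to its background and none sets the members apart. The members were also spread over the chromosomes like all listed genes, from 13.8% on chromosome 2 (against 14.1%) to 27.8% on chromosome 1 (against 27.1%).

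Members listed for PI alone reached 513, at CYP96A9 (AT4G39480), a cytochrome P450 gene, and AT4G39470, which share the peak on chromosome 4 from 18361490 to 18361928. NIK3 (AT1G60800), a receptor kinase gene, followed at 491, and MTO3 (AT3G17390), an S-adenosylmethionine synthetase gene, and AT3G17400, an F-box gene, shared 405 on chromosome 3 from 5954291 to 5954695. These PI scores were above the median of the shared members, 119.

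Members listed for AP3 alone reached 351, at BB, whose peak on chromosome 3 from 23458610 to 23459323 also lay downstream of AT3G63540. AT3G05620, a pectinesterase gene, and AT3G05625 shared 207 on chromosome 3 from 1631660 to 1632087. AT2G37100, annotated as a protamine-like protein, scored 173 and AT1G28190 scored 159. None of the 183 placed members of PI alone had an AP3 peak within 1000 bp of its peak, and none of the 50 of AP3 alone had a PI peak so near, which the rule largely fixes because such a peak would usually enter a window of the gene.

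The rule counts any score above 0. Just inside it, the lowest members were AT2G25460 and NAC102 (AT5G63790) for PI, both at 28.1, and AT2G30180, a tRNA gene, for AP3 at 27.9. Outside it, the genes with the lowest score in another window were COL9 (AT3G07650), a CONSTANS-like gene with proximal scores of 190.6 for PI and 41.3 for AP3 and an inside PI score of 26.3, and PHB (AT2G34710), an adaxial identity gene with proximal scores of 140.5 and 44.9 and downstream scores of 89.1 for PI and 26.6 for AP3. PHB would stay outside without its low AP3 score, because of its downstream PI score. A further 111 genes were proximal-only in 1 table and listed otherwise in the other, 62 by the PI table and 49 by the AP3 table. Of the 62, 38 had the proximal window plus others in the AP3 table and 14 had only the inside window there. Of the 49, 23 and 18 did so in the PI table. At some of these genes 1 table gave the proximal and the other the inside window, and both peaks could be placed. There the peaks overlapped by at least 1 bp at 6 of 7 and 8 of 8 genes, so that overlapping peaks were assigned to different windows.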

How the data were processed

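Reads were mapped and handled with BWA 0.6.1 and SAMtools on TAIR10, per the submitters' processing notes. How peaks were called, at which threshold and with which gene models, is not given in the sources used here. The authors deposited a peak list and a gene table for the PI-GFP and the AP3-GFP library. Both hold a score, called Poisson per the file headers, with no stated normalization. Positions are on TAIR10, as deposited.

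The members and gene lists were chosen with earlier results of these data known. Genes were named if they were among the 10 highest members of a table, the 5 highest of 1 factor alone, in a gene list, among the 3 largest rank changes either way, or at the limits of the rule. All other genes named were chosen after their values were seen. Symbols and types were looked up in RefSeq (assembly TAIR10.1), which held 735 of 747 members, and none of its coordinates were used. Annotation classes matched words in the first clause of the deposited annotation of protein-coding genes. A gene was tied to a peak where 1 peak on its chromosome had the identical score. Promoter sequences were not analysed here.

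Scripts ran in Python 3.11.15 with pandas 2.3.3, numpy 2.4.6, SciPy 1.17.1 and matplotlib 3.10.9, and were checked on simulated tables. With 1 library a factor, no test was run. Alternatives changed the rule, the threshold and the overlap.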

Additional observations from a re-analysis of the deposited data

How the results depend on the processing

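The number of proximal-only genes was 434 with scores below each list's median set to 0, against 747, and stayed within 1.5 times of it under the other 3 rules tried (701 to 858). The share listed for both factors, 49.0%, was 55.6% when the rule had to hold in only 1 table. It was 30.6% of the 294 genes left without those whose placed peak lay in a window of another listed gene. That setting keeps the genes that could not be placed. In 2 settings added after the data were seen, the share was 50.1% of the 467 genes with all peaks placed. It was 43.4% of the 99 placed genes with no peak in a window of another gene. The rise to 55.6% was fixed by its setting, which adds only genes listed for both factors. The median PI score, 81.5, was 177 with the lower scores removed, 63.5 without shared peaks, 96.7 for placed genes and 91.6 for placed genes without shared peaks. The median AP3 score, 62.5, was 119, 49.5, 88.2 and 91.9 under the same settings. Removing the lower scores raises a median by construction. The cause of the remaining shifts was not tested. Overlap of the PI and AP3 peaks, 99.6%, was 82.5% with a reciprocal overlap of 50% and 89.3% with maxima at most 100 bp apart. Genes of the lists numbered 31 instead of 16 when the proximal window had only to hold the highest score. Shares of promoters with a CArG box were not run, since promoter sequences were not used here. Leaving out a replicate was not possible with 1 library a factor. No paired analysis was possible because each factor has 1 library and no result comes from a test.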
